A study of Mus musculus with 6 samples.

Results

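Cholesterol is built in animal cells from acetyl-CoA through mevalonate, farnesyl diphosphate, squalene and lanosterol, and its making is set by the transcription factors SREBP1 and SREBP2, which the escort protein Scap carries out of the endoplasmic reticulum when sterols are low and which Insig proteins hold back when sterols are high. In the testis, Leydig cells draw on cholesterol for testosterone and store it as esters, while meiotic and haploid germ cells make sterol intermediates of their own and Sertoli cells recycle lipid from shed germ cell remnants. The genes described here are 29 genes of this pathway, taken by name and grouped by step, and all 29 were found by symbol among the 38715 genes of the deposited table. They comprised 7 genes of synthesis up to farnesyl diphosphate, 10 genes from squalene to cholesterol, 5 regulators, 2 genes of cholesterol trafficking and 5 genes of esterification, ester breakdown and efflux.

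The libraries were made from whole mouse testis, 3 from the Middle group and 3 from the Control group. Middle was read as the group exposed to MES, since the design text names an exposed group beside a control and Middle is the other name in the titles. The labels name neither the strain or age of the mice, nor the dose and dates of exposure, nor the animal behind each library, so replicates may be technical and each p-value speaks of the variation among these 6 libraries alone. The series title ties exposure in early life to testosterone production, which starts from cholesterol. In whole testis the levels of these genes combine Leydig cells with germ cells and others. A link of these levels to the supply of cholesterol for testosterone was not tested.

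Values are RPKM, reads scaled by the authors to gene length and library size, so that levels can be compared between genes per length. The libraries held 46649138 to 56435498 reads in Middle and 38820385 to 58389391 reads in Control. The gene test was limma on log2(RPKM + 1) over the 15040 genes that averaged 1 RPKM or more in either group, two-sided, with Benjamini-Hochberg adjustment over all of them and a threshold of 0.05. Markers of the labelled tissue were present: the Leydig cell list (9 genes) summed to 482 to 714 RPKM in Middle and 489 to 623 in Control, and the elongating spermatid list (8 genes) to 27810 to 30265 in Middle and 29538 to 32677 in Control. The adrenal cortex list (4 genes) summed to at most 0.359 RPKM in Middle and 0.361 in Control. Middle replicate 1 stood apart from the other 5 libraries on the first principal component, which held 50.1% of the variance. It was also the library with the strongest relation of gene level to transcript GC content. The rank correlation across genes was 0.463, against 0.0191 and -0.0687 in the other Middle libraries and -0.304 to -0.224 in Control. Scores on the component were -27.0, -0.965 and -4.90 in Middle and 6.48 to 15.0 in Control. Both the component and the GC relation thus also separated the groups.

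None of the sterol genes passed the test. Of the 29 members 20 reached the filter, and 0 were called higher and 0 lower in Middle by limma, where 0.0532% of all tested genes were called (0.00665% higher and 0.0465% lower). An unadjusted p under 0.05 was reached by 3 members, Ebp, Scap and Fdft1, that is by 3 of 20 where 20.7% of all tested genes reached it (11.7% higher and 9.02% lower). With limma-voom on the recovered reads, which tested 28 members, 0 were called and 4 had an unadjusted p under 0.05, where 17.8% of the genes in that fit did. The 20 fold changes ran from -0.20 to 0.34 on the log2 scale with a median of 0.04, beside a median of 0.03 over all tested genes. Of the 20, 13 lay above 0 and 7 below. The 3 Middle libraries lay above the 3 Control libraries for 3 members and below them for 2, against 17.9% and 11.4% of all tested genes, and 29.3% in either direction, so the members' counts were near the background. With 3 libraries against 3, an exact permutation test of a single gene cannot give a p below 0.1.

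**Figure D1:**
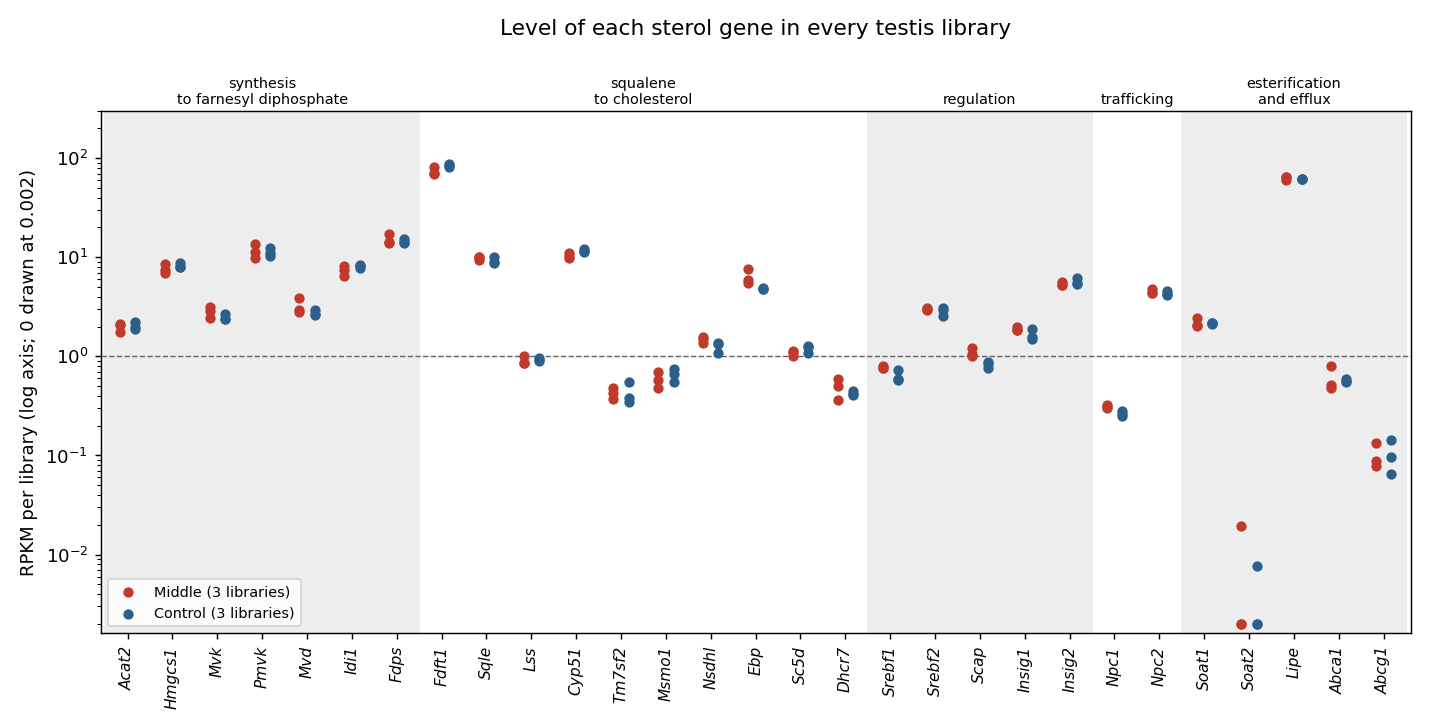
RPKM of the 29 sterol genes in each library on a log axis, ordered by pathway step, with the 3 Middle libraries left of the 3 Control libraries and the dashed line at the filter of 1 RPKM. Fdft1 and Lipe stand far above the other genes in all 6 libraries, Soat2 is at or near 0, and the distances between genes are much wider than those between groups.

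The members differed in level far more among themselves than between groups. Fdft1, which encodes squalene synthase, the enzyme that commits farnesyl diphosphate to sterols, was the highest at a mean of 74.3 RPKM in Middle and 85.3 in Control, followed by the ester hydrolase gene Lipe at 63.1 and 61.9. Fdps came next at 15.1 in Middle and 14.5 in Control. Pmvk, Cyp51 and Sqle followed at 9.29 to 11.7 RPKM as group means, and the libraries of these 3 genes overlapped, so their order is not settled. At the other end Npc1 averaged 0.312 RPKM in Middle and 0.263 in Control, Abcg1 0.0992 and 0.103, and Soat2 was not above the limit that a count of 0 allows. Levels within the branch from squalene ran from that of Fdft1 down to 0.425 RPKM in Middle and 0.426 in Control for Tm7sf2, with Lss, the lanosterol synthase gene, at 0.915 in Middle and 0.925 in Control. The deposited gene length is the union of all annotated exons, which is long for some of these genes (10787 bases for Lss). Rescaled to the longest protein-coding transcript, a setting chosen after seeing the data, Lss came to 2.11 RPKM in Middle and 2.14 in Control, Fdps to 46.1 and 44.1, Fdft1 to 82.7 and 94.97, and Lipe to 99.96 and 98.2, so that Lipe and Fdft1 changed places at the top.

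Some of these levels carry shared sequence. How the authors treated reads that overlap 2 genes or match several places remains unstated. Of the exon bases of Fdft1, 18.8% overlapped exons of Ctsb on the other strand. Lipe shared 15.6% of its exon bases with 4732471J01Rik and Hmgcs1 12.1% with Gm48342, both on the other strand, while Tm7sf2 shared 12.1% with Vps51 on the same strand. Among stretches of 75 bases in the transcripts, 33.9% of those of Acat2 also occurred in Acat3, 21.9% of those of Fdps in Gm43738 and 16.7% of those of Idi1 in Gm13502. These shares do not bound the uncertainty of the levels, which also depends on the level of the other gene. Vps51 averaged 3.45 RPKM in Middle and 2.78 in Control, far above Tm7sf2 at 0.425 and 0.426. Ctsb averaged 7.16 RPKM in Middle and 6.13 in Control, far below Fdft1 at 74.3 and 85.3. The part of shared reads in any level was not measured.

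Genes of sterol synthesis are known to share promoter elements: a sterol regulatory element bound by SREBPs, and nearby sites for the general factors NF-Y and Sp1. Promoter windows of 250 bases before the annotated start were taken from RefSeq (build GRCm38.p6, not the build of the expression table) for the 23 members that matched by symbol, 32 windows in all, and searched on both strands. The NF-Y box CCAAT was found in 20 of the 32 windows, where 33.8% of all 32851 windows held it. By gene it was in at least 1 window of 19 of the 23, for which no background per gene was computed. The Sp1 box GGGCGG was found in 24 of 32 windows, where 32.7% of all windows held it. The sterol element core TCACNCCAC was found in 1 window, that of Hmgcs1, and in 1.05% of all windows. The half-site TGACG of cAMP-responsive factors, which may overlap other motifs, was found in 7 of 32 member windows and 17.8% of all windows, and the E-box CACGTG in 6 of 32 and 6.02%. These are exact letter matches, not measured binding sites, and other variant forms of an element were not searched for. The windows of all genes were not matched to those of the members for GC content, so the shares do not single out sterol genes. The windows of 4 genes are printed 5′ to 3′ on the strand of the gene. They were chosen because Hmgcs1 holds the match to the sterol core and Cyp51 and Ebp lay on opposite sides of 0 between groups. Lipe was added as the most abundant member with a window in the table. Capitals mark TCACNCCAC, CCAAT and TGACG in either orientation.
Hmgcs1 (chr13:119690101-119690350, plus strand): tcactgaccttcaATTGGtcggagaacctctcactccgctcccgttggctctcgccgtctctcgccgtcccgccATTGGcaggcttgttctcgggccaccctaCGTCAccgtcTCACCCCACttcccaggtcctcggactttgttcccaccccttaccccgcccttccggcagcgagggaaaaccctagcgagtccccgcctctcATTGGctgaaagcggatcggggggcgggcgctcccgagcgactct
Cyp51 (chr5:4104698-4104947, minus strand): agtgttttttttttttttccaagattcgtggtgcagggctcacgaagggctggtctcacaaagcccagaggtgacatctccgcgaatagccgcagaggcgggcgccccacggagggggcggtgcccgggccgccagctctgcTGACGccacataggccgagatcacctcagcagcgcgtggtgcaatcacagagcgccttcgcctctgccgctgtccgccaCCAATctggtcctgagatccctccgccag
Ebp (chrX:8193513-8193762, minus strand): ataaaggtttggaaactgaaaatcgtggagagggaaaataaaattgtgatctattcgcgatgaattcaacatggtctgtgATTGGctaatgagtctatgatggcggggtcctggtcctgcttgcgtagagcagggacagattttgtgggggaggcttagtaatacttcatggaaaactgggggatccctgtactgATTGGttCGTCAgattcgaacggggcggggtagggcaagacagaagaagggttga
Lipe (chr7:25390113-25390362, minus strand): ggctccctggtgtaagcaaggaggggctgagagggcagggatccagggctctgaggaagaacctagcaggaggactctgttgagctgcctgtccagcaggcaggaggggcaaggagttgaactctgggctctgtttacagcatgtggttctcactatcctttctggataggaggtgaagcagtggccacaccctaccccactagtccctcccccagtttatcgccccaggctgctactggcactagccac
The Hmgcs1 window held 3 NF-Y boxes and the match to the sterol element core, Ebp held 2 NF-Y boxes and Cyp51 held 1. This Lipe window, 1 of 2 listed, held none of the 3 marked motifs. The other Lipe window, not printed, held 6 Sp1 boxes and 1 E-box. Which start gives the testis level of Lipe was not tested.

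In the steps up to farnesyl diphosphate no gene passed the test. All 7 were tested and overlapped between the groups, where 29.3% of all tested genes did not overlap, and 4 lay above 0 and 3 below, with a median log2 fold change of 0.03. Hmgcs1 (GRCm39 chromosome 13, 120151915 to 120169796), which encodes the cytosolic synthase that makes HMG-CoA, was at 6.92, 8.61 and 7.43 RPKM in Middle and 8.79, 7.98 and 8.05 in Control. The highest Middle library lay inside the Control range, with a log2 fold change of -0.10 (SE 0.09, adjusted p = 0.499, limma). Its promoter window, printed above, is the only one of the 32 with a match to TCACNCCAC. Mvk, the mevalonate kinase gene, was at 3.18, 2.88 and 2.46 RPKM in Middle and 2.38, 2.66 and 2.37 in Control. Mvd, whose enzyme decarboxylates mevalonate diphosphate, was at 3.90, 2.81 and 2.93 in Middle and 2.70, 2.63 and 2.95 in Control. Middle replicate 1 was the highest library for both genes, and for Mvd the other 2 Middle libraries lay inside the Control range. The log2 fold changes were 0.14 for Mvk and 0.16 for Mvd (adjusted p 0.372 and 0.411, limma), and without Middle replicate 1 they were 0.081 and 0.042.

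The same library was the highest for the next kinase and for Fdps. Pmvk, the phosphomevalonate kinase gene, was at 13.7, 11.3 and 9.79 RPKM in Middle and 11.02, 10.2 and 12.5 in Control. Fdps, whose enzyme makes farnesyl diphosphate, the branch point to sterols, dolichol and protein prenylation, was at 17.2, 14.2 and 13.997 RPKM in Middle and 14.4, 13.8 and 15.3 in Control. In both genes Middle replicate 1 was the highest library, while the other 2 Middle libraries lay inside the Control range for Fdps, and 1 inside and 1 below it for Pmvk. Their log2 fold changes, 0.03 for Pmvk and 0.06 for Fdps, turned to -0.082 and -0.034 without it. Idi1, which encodes the isomerase of isopentenyl diphosphate, was lowest in the same library, at 6.54, 7.498 and 8.12 RPKM in Middle and 7.87, 8.31 and 8.14 in Control (log2 fold change -0.12, SE 0.08, adjusted p = 0.405, limma). Acat2, the thiolase gene at the head of the pathway, averaged 1.98 ± 0.18 RPKM in Middle and 2.03 ± 0.18 in Control (SD, n = 3 each).

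The steps from squalene to cholesterol held differences in both directions, none past the test. Of 10 genes 6 were tested, 3 lay above 0 and 3 below (median log2 fold change -0.0015), and 4 of the 6 showed no overlap between the groups, 2 higher and 2 lower in Middle, where 29.3% of all tested genes showed none (17.9% higher and 11.4% lower). Fdft1 (chromosome 14, 63382599 to 63417027) was at 69.4, 82.2 and 71.2 RPKM in Middle and 88.0, 85.5 and 82.5 in Control. All 3 Middle libraries lay below the Control libraries, though the highest Middle library and the lowest Control library were close together. The ratio of means was 0.87 and the log2 fold change -0.20 (SE 0.08, 95% confidence interval -0.38 to -0.023, adjusted p = 0.212, limma). Cyp51 (chromosome 5, 4131145 to 4154746), the lanosterol demethylase gene, which in mouse haploid germ cells is known to be driven by a cAMP-responsive factor and to make a meiosis-activating sterol, was at 10.3, 9.92 and 11.1 RPKM in Middle and 12.2, 11.5 and 11.3 in Control. The groups again came close without overlapping, at a log2 fold change of -0.15 (SE 0.07, adjusted p = 0.25, limma). The spermatid marker lists lay mostly on the same side. The spermatocyte list had a median of -0.07 with genes on both sides of 0, and the spermatogonial list lay above 0. Of 7 tested round spermatid genes 5 lay below 0, with sums of 331 to 342 RPKM in Middle and 365 to 393 in Control, and of 8 elongating spermatid genes 7 lay below 0. Of 7 spermatocyte genes 4 lay below 0 and 3 above, and all 3 tested spermatogonial genes lay above 0. Their part in the values of Fdft1 and Cyp51 was not tested, and in whole tissue fewer cells of a type and less RNA per cell cannot be told apart.

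Ebp and Nsdhl lay on the other side. Ebp (chromosome X, 8051568 to 8059751), whose enzyme shifts a double bond in the sterol ring, was at 7.64, 5.55 and 5.92 RPKM in Middle and 4.75, 4.86 and 4.77 in Control. Every Middle library lay above every Control library, and Middle replicate 1 lay well above the other 2. The ratio of means was 1.33 and the log2 fold change 0.34 (SE 0.11, 95% confidence interval 0.09 to 0.58), with an adjusted p of 0.18 (limma). This was the largest of the 20 fold changes with 1 RPKM added, while by ratio of means and in limma-voom Scap lay higher. Without Middle replicate 1 it was 0.22 (adjusted p = 0.229, limma), and with the trend on GC content removed from each library it was 0.34. Nsdhl (chromosome X, 71962163 to 72002120), a decarboxylating dehydrogenase of the C4 demethylation complex, was at 1.55, 1.51 and 1.354 RPKM in Middle and 1.32, 1.351 and 1.09 in Control. Its lowest Middle library lay barely above the highest Control library, and its log2 fold change was 0.13 (SE 0.08, adjusted p = 0.361, limma).

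The other squalene-branch genes overlapped between groups. Sqle, the squalene epoxidase gene and a rate-limiting step of the branch, was at 9.41, 10.2 and 10.03 RPKM in Middle and 8.80, 10.1 and 8.98 in Control, with a log2 fold change of 0.08 (SE 0.07, adjusted p = 0.53, limma). Sc5d, a desaturase gene late in the branch, was at 0.998, 1.11 and 1.13 RPKM in Middle and 1.28, 1.25 and 1.09 in Control. Lss, Tm7sf2, Msmo1 and Dhcr7, which encode lanosterol synthase, a sterol reductase, a methyl oxidase and the reductase of the last step of the pathway, stayed below the filter. Tm7sf2 was at 0.475, 0.37 and 0.431 RPKM in Middle and 0.382, 0.346 and 0.55 in Control. Dhcr7 was at 0.588, 0.509 and 0.359 RPKM in Middle and 0.405, 0.418 and 0.443 in Control, and Msmo1 averaged 0.587 ± 0.11 in Middle and 0.653 ± 0.10 in Control (SD, n = 3 each). These 4 genes held 76 to 576 reads per library, well above the limit that a count of 0 allows, and their adjusted p-values in limma-voom were 0.68 to 0.931. The total of all 17 synthesis genes, of which Fdft1 was the largest part, summed to 149 to 162 RPKM in Middle and 163 to 168 in Control. Summed by step, the groups overlapped. Up to farnesyl diphosphate the sums were 46.5 to 53.6 RPKM in Middle and 47.9 to 51.1 in Control. From squalene on, Fdft1 included, they were 102 to 113 in Middle and 112 to 119 in Control.

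**Figure D2:**
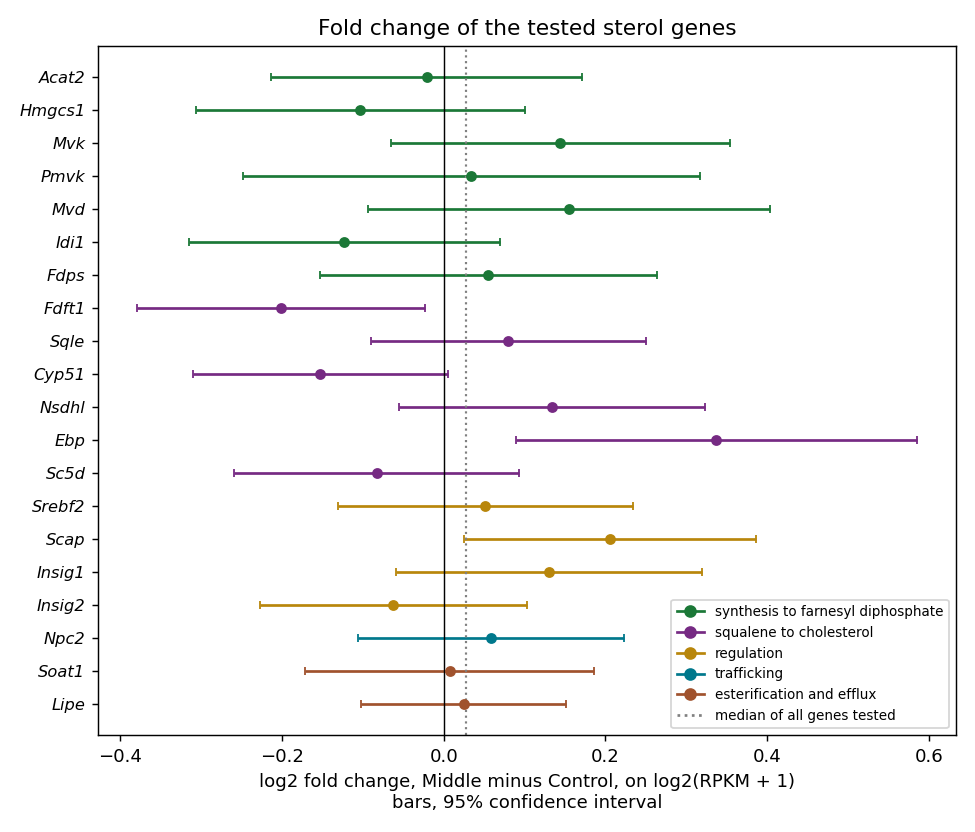
Log2 fold change of the 20 tested sterol genes, Middle minus Control, with 95% confidence intervals from limma, coloured by step, and a dotted line at the median of all tested genes (0.03). The intervals of Fdft1, Ebp and Scap leave out 0 before adjustment, those of the other 17 include it, and no gene passed after adjustment.

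Among the regulators, Scap differed most between the groups. Of 5 regulators 4 were tested, 3 lay above 0 and 1 below, with a median of 0.09. Scap (chromosome 9, 110162356 to 110214018), the sterol-sensing escort of SREBPs, was at 1.23, 1.05 and 1.02 RPKM in Middle and 0.829, 0.757 and 0.872 in Control. All Middle libraries were above all Control libraries, with a ratio of means of 1.34. The log2 fold change was 0.21 (SE 0.08, adjusted p = 0.21, limma). It was 0.13 with the GC trend removed and 0.43 in limma-voom, which adds no 1 RPKM to this low gene (adjusted p 0.297 and 0.136, limma). Scap stood close to the filter, which it passed through the Middle mean of 1.10 RPKM alone, since its Control mean was 0.82, so its sign in the count of members above 0 was fixed by the filter. Of the 19 members that reached the filter in both groups, 12 lay above 0 and 7 below. Of its exon bases 13.2% overlapped 5830462I19Rik on the other strand, which averaged 0.405 RPKM in Middle and 0.225 in Control.

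Both SREBP genes and both Insig genes were expressed in every library. Srebf1, which encodes the SREBP that favours fatty acid genes, was at 0.798, 0.765 and 0.767 RPKM in Middle and 0.588, 0.584 and 0.736 in Control. Its groups did not overlap, but it lay below the filter. In limma-voom its log2 fold change was 0.31 (SE 0.14) with an adjusted p of 0.269. Srebf2, which encodes the SREBP that favours cholesterol synthesis genes, was at 2.94, 2.99 and 3.09 RPKM in Middle and 2.55, 2.97 and 3.10 in Control, with a log2 fold change of 0.05 (SE 0.08, adjusted p = 0.711, limma). Insig1, the Insig gene that is itself induced by SREBPs, was at 1.99, 1.86 and 1.86 RPKM in Middle and 1.4999, 1.58 and 1.89 in Control, where 1 Control library lay inside the Middle range. Insig2, the form that does not depend on SREBPs in the same way, was at 5.28, 5.30 and 5.64 RPKM in Middle and 5.56, 5.40 and 6.13 in Control.

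Within each library the members of these pairs could be set against each other. The ratio of Insig2 to Insig1 was 2.65, 2.85 and 3.03 in Middle and 3.71, 3.41 and 3.24 in Control, with no overlap. That of Srebf2 to Srebf1 was 3.68, 3.91 and 4.03 in Middle and 4.33, 5.09 and 4.21 in Control, also with no overlap. The ratio of Fdft1 to Fdps was 4.03, 5.78 and 5.09 in Middle and 6.12, 6.18 and 5.41 in Control, and that of Lipe to Soat1 was 31.9, 25.0 and 31.0 in Middle and 28.8, 29.4 and 28.3 in Control. The groups overlapped for both of these. These 4 ratios were chosen after the values were seen. By exact two-sided permutation test the first 2 had p = 0.1, the smallest that this design allows, and 0.2 after adjustment over the 4, and the other 2 had p = 0.2 and 1. A ratio shows unequal levels, not which gene of the pair differed.

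**Figure D3:**
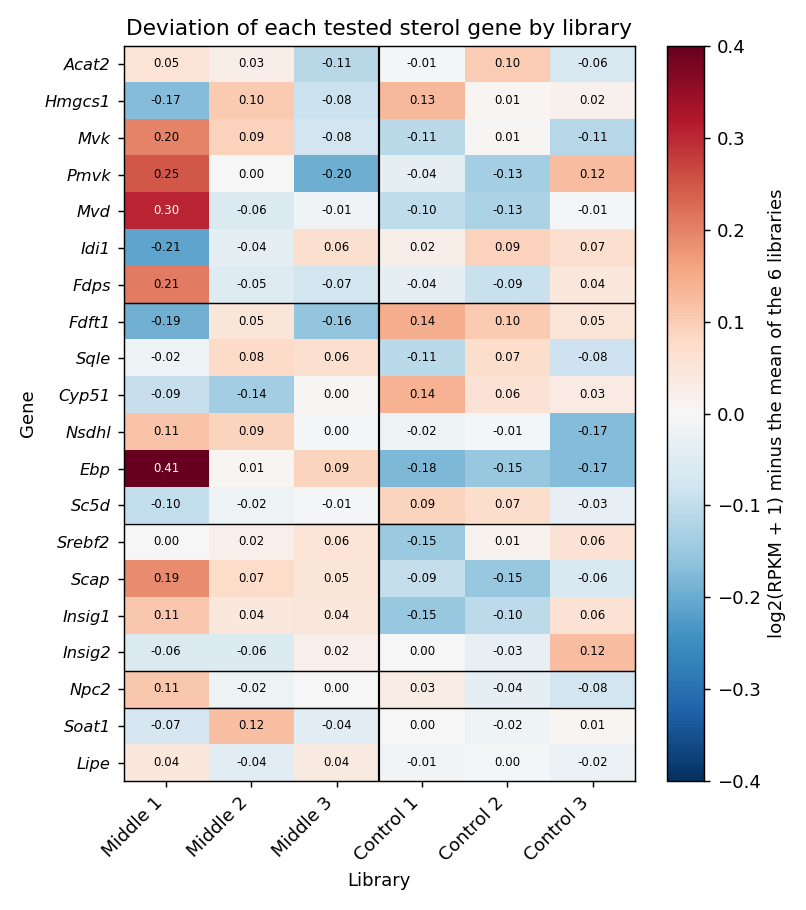
Deviation of each tested sterol gene in each library from its mean over the 6 libraries, on log2(RPKM + 1), with Middle on the left and Control on the right of the vertical line and horizontal lines between steps. The widest deviations are in Middle replicate 1, where Ebp is at 0.41 and Mvd at 0.30, while Hmgcs1, Idi1 and Fdft1 are below 0 in the same library.

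Middle replicate 1 deviated most among the early synthesis genes. Its median deviation over the 7 genes up to farnesyl diphosphate was 0.20, against -0.003 and -0.08 in the other Middle libraries and -0.04, 0.0055 and 0.02 in Control. Within that step Mvd, Pmvk, Fdps and Mvk were high in this library and Idi1 and Hmgcs1 low. Of the 20 tested members 13 lay above 0 with every library, 11 without Middle replicate 1 and 10 with the GC trend removed.

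Both trafficking genes export cholesterol from late endosomes and lysosomes, where Npc2 hands it to the membrane protein Npc1. Npc2 was at 4.83, 4.32 and 4.41 RPKM in Middle and 4.52, 4.26 and 4.12 in Control, with a log2 fold change of 0.06 (SE 0.07, adjusted p = 0.638, limma). Npc1 was at 0.31, 0.303 and 0.324 RPKM in Middle and 0.26, 0.279 and 0.25 in Control. The Npc1 groups did not overlap, but the gene lay below the filter, and its log2 fold change in limma-voom was 0.24 (SE 0.14) with an adjusted p of 0.383. It held 110 to 207 reads per library. Of its exon bases 4.52% overlapped Rmc1 on the other strand, which averaged 1.59 RPKM in Middle and 1.25 in Control. Rmc1 thus lay above Npc1 in level, and its part in the Npc1 values was not tested.

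Lipe, the storage gene with the highest level, had similar values in all 6 libraries. It encodes hormone-sensitive lipase, which frees cholesterol from its esters and which male mice need for normal sperm formation. Lipe (chromosome 7, 25078952 to 25098135) was at 64.4, 60.7 and 64.2 RPKM in Middle and 62.0, 62.3 and 61.5 in Control. The Control libraries lay inside the Middle range, with a log2 fold change of 0.02 (SE 0.05, adjusted p = 0.801, limma) whose 95% confidence interval of -0.10 to 0.15 was the narrowest among the 20 tested members. RefSeq lists a pair of starts for Lipe, and counts per gene do not tell their transcripts apart. Soat1, the acyltransferase gene that makes cholesteryl esters in most tissues, was at 2.01, 2.43 and 2.07 RPKM in Middle and 2.15, 2.12 and 2.17 in Control, with a log2 fold change of 0.0072 (SE 0.08, adjusted p = 0.963, limma). Soat2, the form of liver and intestine, held 0, 2 and 0 reads in Middle and 0, 1 and 0 in Control. All 6 libraries were under the limit that a count of 0 allows, 6 reads, which is up to 0.0698 RPKM for this gene.

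The efflux transporters were low. Abca1, which loads cholesterol onto apolipoprotein A-I, was at 0.509, 0.803 and 0.475 RPKM in Middle and 0.56, 0.545 and 0.587 in Control. Middle replicate 2 was the highest of the 6 libraries and the other 2 Middle libraries were the lowest. Abcg1, which passes cholesterol to high-density lipoprotein, was at 0.0781, 0.132 and 0.0874 RPKM in Middle and 0.0974, 0.0657 and 0.145 in Control, from 27 to 45 reads per library. Both were below the filter, with adjusted p-values of 0.944 and 0.963 in limma-voom.

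**Figure D4:**
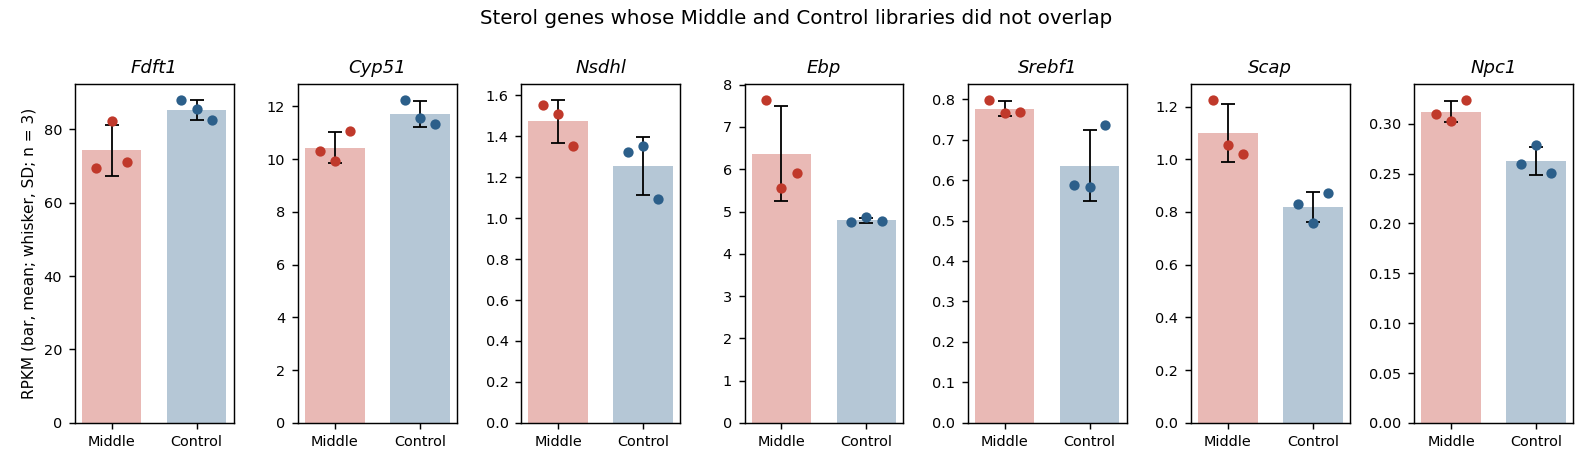
RPKM of the 7 sterol genes whose Middle and Control libraries did not overlap, Srebf1 and Npc1 among them from below the filter, with bars for the mean and whiskers for the SD (n = 3 per group) and each axis starting at 0. Fdft1 and Cyp51 are lower in Middle and the other 5 are higher, with ratios of means from 0.87 for Fdft1 to 1.34 for Scap, and none passed the test. Of all tested genes 29.3% did not overlap, 17.9% higher and 11.4% lower in Middle. No such share was computed for genes below the filter.

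Other genes around the pathway also gave no call. The 6 lists outside the members held 86 genes of the table, of which 57 were tested: 47 lay above 0 and 10 below, beside 13 above 0 of the 20 tested members and 55.9% over all tested genes. Of the 57, 3 reached the filter through Middle alone and could count only as above 0, and of the other 54, 44 lay above 0. Of the 57, 0 passed over all genes by limma and 10 had an unadjusted p under 0.05. The Middle libraries lay above all Control libraries for 16 of them and below for 0, against 17.9% and 11.4% of all tested genes. Without Middle replicate 1 the count was 50 of 57 above 0, and with the GC trend removed 44 of 56. The difference between these lists and the members was not tested.

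Of the targets of SREBP1 in fatty acid synthesis, all 10 tested lay above 0 (median 0.08), 9 of 10 without Middle replicate 1 and 10 of 14 in limma-voom. Fasn, the fatty acid synthase gene, was at 4.24, 3.63 and 3.796 RPKM in Middle and 2.88, 3.33 and 3.03 in Control (log2 fold change 0.26, SE 0.08, adjusted p = 0.178, limma), and Mid1ip1, an activator of acetyl-CoA carboxylase, at 6.21, 6.49 and 6.13 in Middle and 4.598, 5.17 and 5.399 in Control. Scd2, a desaturase gene, averaged 13.8 ± 1.30 RPKM in Middle and 12.3 ± 0.70 in Control (SD, n = 3 each). All 9 tested genes of the oxysterol and LXR list, which also holds lipid droplet coat genes, lay above 0 (median 0.14). Abcg8 reached the filter through Middle alone, so that its sign was fixed by the filter. The count above 0 was 8 of 9 with the GC trend removed or without Control replicate 1, and 8 of 10 without Middle replicate 1. Plin2, a coat protein of lipid droplets, was at 24.5, 19.9 and 25.1 RPKM in Middle and 16.8, 20.2 and 17.9 in Control, where Middle replicate 2 lay inside the Control range. Abcg8, a partner of a sterol transporter pair, averaged 1.18 ± 0.22 RPKM in Middle and 0.818 ± 0.04 in Control, and Cyp46a1, a cholesterol hydroxylase, 1.32 ± 0.12 and 1.04 ± 0.11 (SD, n = 3 each). None of these passed (adjusted p 0.178 to 0.3, limma).

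In the remaining lists, Tlcd1, a membrane lipid regulator, had the largest log2 fold change of the SREBP and degradation list, of which 8 of 10 lay above 0. It was at 43.8, 34.1 and 37.4 RPKM in Middle and 29.6, 31.7 and 31.7 in Control (0.30, SE 0.09, adjusted p = 0.18, limma). The ubiquitin ligase gene Marchf6, which takes part in sterol-dependent breakdown of pathway enzymes, averaged 3.98 ± 0.06 RPKM in Middle and 3.45 ± 0.22 in Control (SD, n = 3 each). Of the isoprenoid branch 6 of 8 lay above 0, and Dhdds, which makes dolichol, averaged 6.73 ± 0.98 RPKM in Middle and 5.30 ± 0.48 in Control, Coq2 of ubiquinone synthesis 3.46 ± 0.16 and 2.92 ± 0.40, and the farnesyltransferase gene Fntb 5.37 ± 0.28 and 4.79 ± 0.19 (SD, n = 3 each). Of 14 uptake and transport genes 10 lay above 0 and 4 below, and 2 of the 10 reached the filter through Middle alone. Gramd1b, a carrier of plasma membrane cholesterol to the endoplasmic reticulum, averaged 19.3 ± 0.34 RPKM in Middle and 17.1 ± 0.69 in Control, and Gramd1a 2.56 ± 0.23 and 2.14 ± 0.16 (SD, n = 3 each). Of other sterol and ketone synthesis genes 4 of 6 lay above 0. Acat1, a mitochondrial thiolase, averaged 8.53 ± 0.32 RPKM in Middle and 7.81 ± 0.52 in Control (SD, n = 3 each). None of the genes named from these lists passed (adjusted p 0.18 to 0.366, limma).

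**Figure D5:**
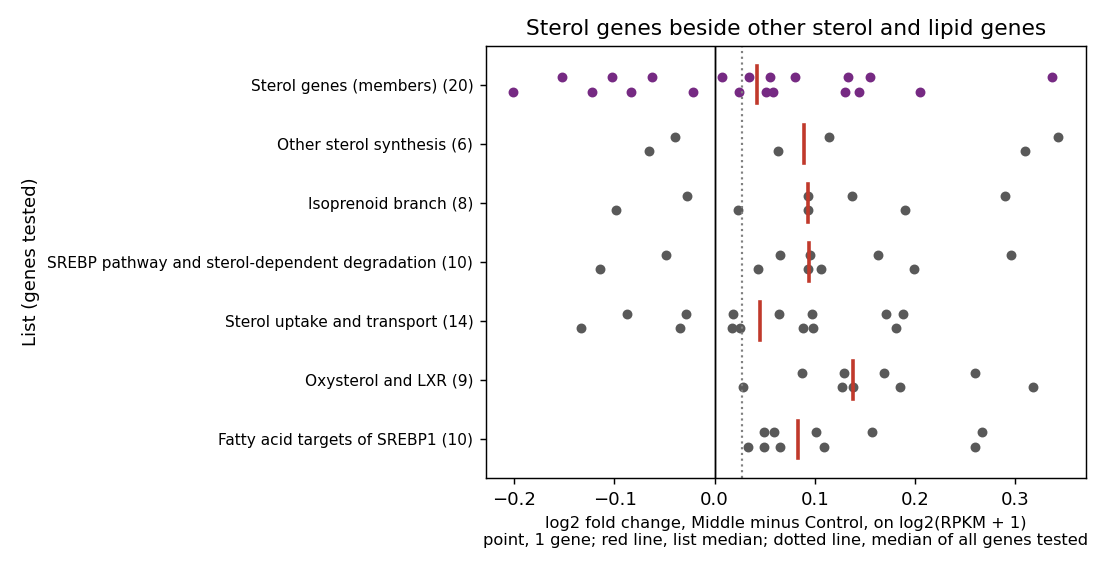
Log2 fold change of each tested gene, Middle minus Control, for the 20 sterol genes and for 6 lists of other sterol and lipid genes, with a red line at each list's median and a dotted line at the median of all tested genes. The sterol genes spread to both sides of 0 around 0.04, while all 10 fatty acid targets and all 9 genes of the oxysterol and LXR list lie above 0. That list also holds lipid droplet coat genes, and its gene Abcg8 was tested through its Middle level alone.

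Sertoli cell and peritubular marker lists lay above 0 in the same comparison, while the Leydig and macrophage lists held genes on both sides. All 8 tested Sertoli cell genes lay above 0, with sums of 197 to 207 RPKM in Middle and 185 to 190 in Control. So did all 6 peritubular genes, with sums of 59.6 to 76.9 in Middle and 51.7 to 58.2 in Control. Of 8 tested Leydig genes 5 lay above 0 and 3 below, beside 55.9% above 0 over all tested genes. The Leydig log2 fold changes ran from -0.62 to 0.17. The Middle libraries lay below all Control libraries for 1 Leydig gene and above them for 0. Of 5 macrophage genes 4 lay above 0 and 1 below, with a median of 0.04. The endothelial list had no gene past the filter. The part of these lists in the values of the lipid genes was not tested.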

How the data were processed

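Testis RNA of 6 mouse libraries was prepared with an mRNA library kit, per the labels' protocols. The submitters' processing notes name fastp 0.23.0 and GRCm39. Aligner, counting tool, annotation and use of strand: not given in the sources used here. RPKM per gene and library were deposited by the authors, with lengths equal to the union of exons for 38715 of 38715 genes. Values times length were whole multiples of the worth of 1 read (100% of values, tolerance 0.001), which recovered the reads. A count of 0 allows up to 3 fragments (6 reads), for counting error only. Libraries of a group differed by more than sampling noise (chi-square per degree of freedom 6.26 to 34.4) and each counted as 1 replicate.

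After log2(RPKM + 1), the 15040 genes that averaged 1 RPKM or more in either group were compared, Middle minus Control, with limma 3.58.1 in R 4.3.3, using its trend option. Fold changes on this scale understate those of low genes. The script was tested on simulated data with larger changes than those of the members and no GC trend. That test does not show how well changes of the members' size would be found. A planned quasi-likelihood count test was not run, since the table holds no counts; limma-voom took its place, on genes with 10 or more recovered reads in 3 libraries. Alternatives were other scalings, a pseudocount of 0.1, other filters, a replicate block, GC trend removal (loess, span 0.5, GENCODE M21 transcripts by symbol, 93.1% of tested genes) and leaving out each library. The members and lists were chosen with earlier results of these data known. All members are named, with the 3 genes of smallest p from each other list; 4 genes that this rule takes, 3 above 0 and 1 below, are not reported here. Exact permutation tests used scipy 1.17.1.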

Additional observations from a re-analysis of the deposited data

How the results depend on the processing

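The count of sterol genes called was 0 under each of the 16 alternatives run, with 1 to 4 at an unadjusted p under 0.05 by limma. Of 300 alternative values of single genes, 285 kept their direction and side of the threshold and 15 changed sign, all in 6 genes whose log2 fold change was within 0.06 of 0. With the GC trend removed, with or without the replicate block, Pmvk was at -0.036, Srebf2 at -0.028 and Lipe at -0.047. Soat1 was at -0.0058 with median-of-ratios and -0.0066 with upper-quartile scaling, where the median of all genes was 0.012 and 0.011. With each library left out in turn the range was -0.058 to 0.030 for Acat2, -0.082 to 0.14 for Pmvk, -0.034 to 0.11 for Fdps, -0.011 to 0.094 for Srebf2 and -0.050 to 0.042 for Soat1. The cause of these turns was not tested. The lowest adjusted p among all of these values was 0.105, that of Fdft1 without Middle replicate 2 (limma).

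Over all tested genes 8 were called, 23 at an adjusted p of 0.1, and 0 with no filter, with the filter at 0.3 RPKM, with the replicate block or with the block and the GC trend removed. Leaving out each library gave 0 to 3. The labels do not say whether the replicate numbers pair the libraries. Deviations of same-numbered libraries from their group means correlated at -0.153, -0.119 and 0.0054. For libraries of different number the correlations ran from -0.0912 to 0.163. With 3 libraries per group these values depend on each other and cannot settle whether the libraries are paired. The block changed no call among the sterol genes (0 of 20, 1 at an unadjusted p under 0.05). Depth limits Soat2, which had no test, and Abcg1.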

Other observations

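Ebp and Nsdhl are the 2 sterol genes on chromosome X, and both were higher in all Middle than in all Control libraries without passing the test, where 60 of the 491 tested genes of that chromosome and 17.9% of all tested genes were. The tested genes of chromosome X had a median log2 fold change of -0.02, with 235 above 0, 256 below and 104 lower in all Middle than in all Control libraries, so that both genes lay on the side opposite to the median of their chromosome. Over all tested genes the median was 0.03.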
